A study of Mus musculus with 4 samples.

Results

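Genes that set the tone of liver vessels were examined for H3K27ac, the acetylation of histone H3 at lysine 27 that marks promoters and enhancers in use. The 10 genes, of 21887 protein-coding genes, were chosen by name for their place in nitric oxide, endothelin, sphingosine 1-phosphate (S1P), and prostanoid signaling or in flow sensing. They were *Edn1*, *Ece1*, *Ednra*, *Ednrb*, *Nos3*, *Ptgs1*, *S1pr1*, *S1pr2*, *S1pr3*, and *Piezo1*. The study examined collagen type IV made by liver sinusoidal endothelial cells (LSECs) in portal hypertension, and its ChIP-Seq measured H3K27ac in LSECs isolated from mice. There were 2 H3K27ac libraries, replicates 2 and 3, and 2 input libraries of the same numbers, which were not analysed here. In the study's general isolation methods, LSECs were purified with beads against the surface protein CD146 and cultured briefly. Its ChIP-Seq method gives fixation of isolated LSECs with 1% formaldehyde for 10 minutes and does not mention culture. The isolation methods took LSECs from *dCas9-KRAB Cdh5* CreERT2 mice and from *Col4a1* fl/wt mice with or without *Cdh5* CreERT2. The sources used here do not state which of them, at what age or after which treatment, gave these libraries, nor whether the replicates came from separate animals. *Cdh5* CreERT2 is a tamoxifen-inducible recombinase under an endothelial promoter.

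In the liver sinusoid, endothelial cells release signals that relax or contract neighboring cells. Nitric oxide and prostacyclin relax vessels, whereas endothelin 1 constricts them through its type A receptor on contractile cells, and the type B receptor on endothelium removes endothelin and stimulates nitric oxide release. S1P acts through a family of G protein–coupled receptors that set barrier function and tone, and the channel Piezo1 opens when flow or stretch pulls on the membrane.

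Each library had its own list of peaks from the authors' caller, which gives a fold enrichment over background for each peak. There were 26975 peaks in replicate 2 and 64498 in replicate 3, with median widths of 322 and 345 bp. Replicate 3 had a peak at 99.2% of replicate 2 peaks, and replicate 2 had a peak at 37.7% of replicate 3 peaks. How deeply each library was sequenced is unknown, because reads were not counted in the lists. Fold enrichments of the 2 libraries are not on one scale, and each peak was therefore also ranked within its own list, from the 0th percentile for the weakest to the 100th for the strongest. Peaks that overlapped were merged into regions, and a region was shared when peaks of the 2 libraries had at least 1 bp in common. Regions were counted in the gene body plus 10 kb on each side, called the window, and were near when within 1 kb of an end of the gene and distal otherwise. Positions are on mm10, counted from 1, and the gene table did not allow exons and introns to be told apart.

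The LSEC label was checked against marker genes, each scored by peaks within 1 kb of a gene end. Over all protein-coding genes, 43.4% had bases under peaks of both libraries there and 53.9% had a replicate 3 peak. Of 15 LSEC markers, 12 had peaks of both libraries, including *Lyve1*, *Stab1*, *Kdr*, and *Gpr182*, and the other 3 (*Stab2*, *Clec4g*, and *Mrc1*) had a replicate 3 peak. Of 11 hepatic stellate cell markers, none had peaks of both libraries and *Col1a1* had a replicate 3 peak, with a fold enrichment of 12.0. *Pdgfrb*, *Lrat*, and *Des* had no peak there in either library. Of 6 smooth muscle markers, *Myh11* had peaks of both libraries, with fold enrichments of 5.42 in replicate 2 and 14.7 in replicate 3, and *Acta2*, *Tagln*, and *Actg2* had a replicate 3 peak only. Of 11 hepatocyte markers, *Trf* had peaks of both libraries (15.9 and 78.8) and *Apoa1* and *Apob* a replicate 3 peak only. Peaks of both libraries were also present at *Cd68* (9.37 and 18.4) and *Spi1* (12.8 and 52.1) among 10 Kupffer cell markers, at *Cd79a* (10.2 and 13.3) among 7 lymphocyte markers, and at none of 7 cholangiocyte markers, of which *Epcam* had a replicate 3 peak. *Alb*, *Adgre1*, *Clec4f*, *Krt19*, and *Cd3e* had none in either library. Whether peaks near the markers lay at ends of neighboring genes was not examined. The part of other cells in the peaks described here was not tested. In these bulk libraries, fewer cells of a type and less signal per cell cannot be told apart.

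Bases under peaks of both libraries lay near an end of 6 of the 10 vascular tone genes (*Edn1*, *Ece1*, *Ednrb*, *Nos3*, *S1pr1*, and *Piezo1*). Over all protein-coding genes the same was true of 43.4%. Replicate 2 alone had a near peak at 7 genes, against 43.4% of all genes, and replicate 3 at 8, against 53.9%. Anywhere in the window, 8 genes had bases under peaks of both libraries, against 58.4% of all genes, and 7 had a shared distal region, against 39.3%. *Ednra* and *S1pr3* were the genes without a shared region. Replicate 3 had a peak in the window of 9 genes (69.9% of all genes) and replicate 2 in that of 8 (58.6%). These 10 genes had a median length of 24776.5 bp, compared with 17169.0 bp over all genes, and the part of length in these counts was not tested.

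The 10 windows held 93 regions, of which 28 were shared, 64 had a peak of replicate 3 only, and 1 had a peak of replicate 2 only. Shared regions are merged from peaks of both lists and need a peak in the shorter list, so their width and rank follow in part from how they were defined. Their median width was 660.5 bp, compared with 300.5 bp for regions of replicate 3 only, and their median percentile in the replicate 3 list was 77.9, compared with 29.2. In the replicate 2 list the shared regions had a median percentile of 46.3, with a range from 0.756 to 97.3. Of the shared regions, 9 were near and 19 were distal. Of those 19, 9 lay inside a gene body and 10 outside, and 3 lay within 1 kb of an end of another gene. The limit of 1 kb separated close values at *Ednrb*, where a shared region 0.505 kb from the low end counted as near and another at 1.04 kb from it as distal. The outermost shared region, at *Nos3*, crossed the limit of 10 kb. Its near edge lay 9.57 kb from the gene, and both summits lay beyond the limit.

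**Figure D1:**
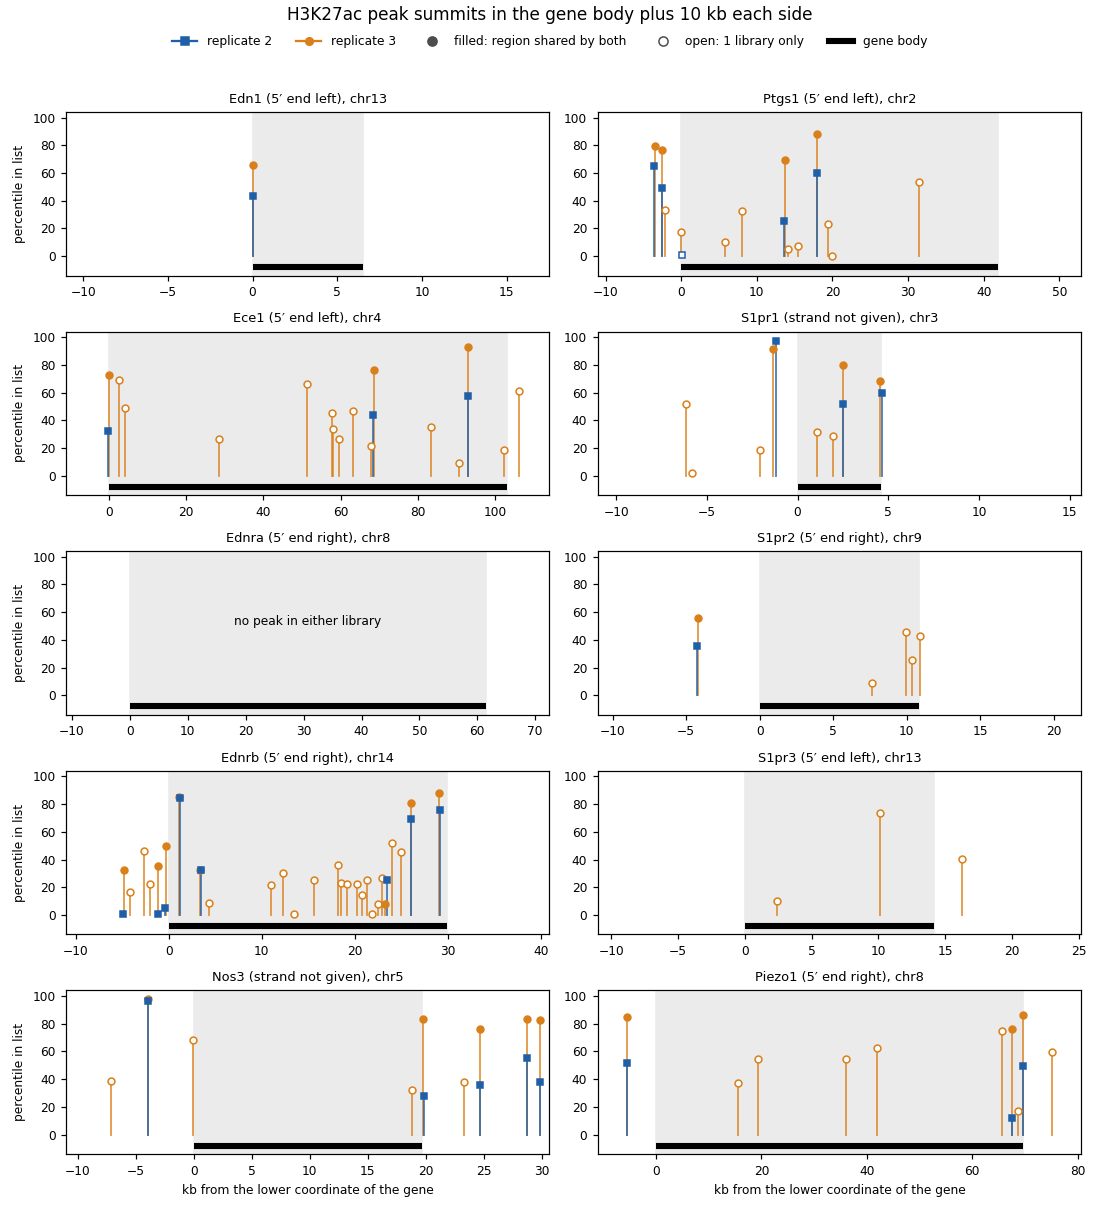
Summits of H3K27ac peaks in regions that overlap the windows of the 10 genes. The x axis is position in kb from the lower coordinate of the gene, and the y axis is percentile of fold enrichment within the library's own list. Squares are replicate 2 and circles replicate 3 (the strongest peak of each region), filled symbols are regions shared by both libraries, open symbols are regions of 1 library, and the shaded span and black bar are the gene body; *Ednrb* holds 27 regions and *Ednra* none.

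The ligand gene *Edn1*, which encodes the precursor of endothelin 1, had a single region in its window. It covered the 5′ end on chromosome 13, from 42301362 to 42301703. The fold enrichment was 8.81 in replicate 2 (43.5th percentile) and 14.0 in replicate 3 (65.7th percentile), so that it ranked in the middle of both lists. No other peak of either library lay in the 6.51 kb of the gene or within 10 kb of it.

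*Ece1* encodes the endothelin-converting enzyme, which cleaves the precursor to the active peptide. It is the longest of the 10 genes, at 103.0 kb, and its window held 16 regions, of which 3 were shared. The shared region at its 5′ end, on chromosome 4 from 137861970 to 137862550, had fold enrichments of 7.46 in replicate 2 and 18.3 in replicate 3. The strongest region of the gene was instead distal and inside the body, 92.7 kb from the 5′ end, from 137954923 to 137955510. There the fold enrichment was 11.4 in replicate 2 (57.5th percentile) and 54.7 in replicate 3 (92.9th percentile). The other distal shared region, from 137930513 to 137931618, had 8.81 and 20.9. The remaining 13 regions, among them one over an internal promoter described with the sequences, had replicate 3 peaks only.

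The receptor genes *Ednra* and *Ednrb* stood at opposite extremes of the 10 genes. *Ednra*, the type A receptor gene, had no peak of either library in its 61.4-kb body or within 10 kb of it. The summit nearest to its transcription start was 13.2 kb away in replicate 3 and 114.0 kb away in replicate 2. *Ednrb*, the type B receptor gene, held 27 regions in its window on chromosome 14, more than any other of the 10 genes, and 8 of them were shared. The whole window lies inside the noncoding gene *Gm35197* on the opposite strand, so these regions cannot be assigned to *Ednrb* alone. With the same number of strongest peaks taken from each library, 3 regions of *Ednrb* were shared, compared with 5 of *Nos3* and 4 of *Ptgs1*. Joining regions within 1 kb of each other left 4 at *Ednrb*, and a reciprocal overlap of at least 50% left 1. Peaks of both libraries covered 12.0% of the *Ednrb* window and none of the *Ednra* window.

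The shared regions of *Ednrb* gathered toward the ends of the gene. At the 5′ end, a region of 3254 bp from 103841785 to 103845038, the widest of the shared regions, had fold enrichments of 16.5 in replicate 2 (75.8th percentile) and 39.4 in replicate 3 (87.8th percentile). Next to it, from 103840075 to 103841656, a distal region had 14.2 and 26.8. At the other end, a region of 2321 bp from 103815120 to 103817440 had 20.4 in replicate 2 (84.2nd percentile) and 33.3 in replicate 3 (84.9th percentile). By fold enrichment, replicate 2 thus had its highest value at the 3′ end of the gene and replicate 3 at the 5′ end. Ranked by p-value, replicate 3 was also strongest at the 3′ end, at the 92.1st percentile compared with the 86.4th at the 5′ end. A further near region across the low end, from 103813840 to 103814980, was weaker, at 5.27 and 9.03. The other 4 shared regions were distal, and none exceeded a fold enrichment of 7.46 in replicate 2. Between 103818858 and 103837705 no region was shared, and the peaks there were of replicate 3 only.

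*Nos3* encodes endothelial nitric oxide synthase. Its strongest region lay outside the gene, on chromosome 5 from 24360598 to 24361528, which is 3.29 kb below the lower end of the body. It had a fold enrichment of 33.2 in replicate 2 (96.3rd percentile) and 84.3 in replicate 3 (97.5th percentile), the highest replicate 3 value of all 93 regions. The summits of the 2 libraries, at 24360887 and 24360883, lay close together. The lower end of the gene itself had a peak in replicate 3 only, with a fold enrichment of 15.3, from 24364121 to 24365289. The near region that made *Nos3* a gene with shared peaks was at the upper end, from 24384453 to 24384968, with 6.93 and 30.3. That end overlaps the 3′ end of *Atg9b*, an autophagy gene on the minus strand, so the region cannot be assigned to *Nos3* alone. Of the other 3 shared regions, one lay 4.88 kb above the gene (7.93 and 21.2). The other 2 lay within 1 kb of an end of the transporter gene *Abcb8* (10.8 and 31.2, and 8.13 and 29.3), and the first of these also of *Atg9b*. No shared region lay wholly inside the *Nos3* body. Strands were taken from the set of RefSeq promoters used here. It holds none for *Nos3* and *S1pr1*, so their ends are given by coordinate.

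*Ptgs1* encodes cyclooxygenase 1, the constitutive enzyme of prostanoid synthesis. No shared region lay near an end of the gene, although both libraries had a peak there. On chromosome 2, a replicate 3 peak from 36216528 to 36216810 (fold enrichment of 5.02) and a replicate 2 peak from 36216815 to 36216964 (4.27) lay side by side at the 5′ end without a base in common. The 4 shared regions of the gene were distal. A region of 1675 bp inside the body, from 36233877 to 36235551, had 11.7 in replicate 2 (60.2nd percentile) and 39.4 in replicate 3 (87.8th percentile). Another inside the body, from 36230221 to 36230757, had 6.78 and 16.0 and covered a listed transcription start. The other 2 lay 3.19 kb and 2.32 kb before the 5′ end of the gene, with 12.9 and 25.1, and 9.58 and 21.3.

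The 3 S1P receptor genes among the 10 formed a series from many peaks to few. The receptor genes *S1pr4* and *S1pr5* were not among the 10 and are described with the S1P list. *S1pr1*, the receptor gene best known for endothelial barrier function, had 3 shared regions in a window on chromosome 3 around a body of only 4.62 kb. The strongest was just outside the lower end, from 115708600 to 115710194, and its fold enrichment was 35.4 in replicate 2 (97.3rd percentile) and 48.6 in replicate 3 (91.1st percentile). The replicate 2 value was the highest of all shared regions of the 10 genes. A region of 2429 bp across the upper end, from 115713349 to 115715777, had 11.6 and 15.3, and one inside the body, from 115712587 to 115713177, had 10.2 and 25.8. *S1pr2* had 1 shared region, which was distal, 4.08 kb below the gene on chromosome 9 from 20961536 to 20961872, with 7.93 and 10.3. It lay between *S1pr2* and the DNA methyltransferase gene *Dnmt1*, whose 5′ end is at 20959888 on the minus strand. The region was closer to that end than to *S1pr2*, whose own 5′ end was 14.9 kb away. *S1pr2* had no shared region with equal numbers of strongest peaks or without the flanks. At the 5′ end of *S1pr2* there were peaks of replicate 3 only, with fold enrichments of 8.14, 5.61, and 7.76. *S1pr3* had no shared region and no near peak. Its 3 distal peaks, all of replicate 3, had fold enrichments of 4.54, 18.8, and 7.38, and the strongest lay at an end of the noncoding gene *Gm32834*.

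*Piezo1*, the gene of the mechanically gated channel, had 10 regions, of which 3 were shared. The shared region at its 5′ end on chromosome 8, from 122550786 to 122551903, had a fold enrichment of 9.76 in replicate 2 (49.8th percentile) and 36.5 in replicate 3 (86.5th percentile). Another region, inside the body and 1.78 kb from that end, had 5.71 and 21.1. The last shared region lay outside the body, 5.22 kb beyond the low end, where the genes *Rnf166* and *Ctu2* meet, and had 10.2 and 33.7. Inside the body, 5 distal regions had replicate 3 peaks only, and the strongest of these reached 19.5.

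The share of each window under peaks put the genes in an order that both libraries had in common at the top. *Ednrb* was first, with 12.9% in replicate 2 (99.8th percentile of protein-coding genes) and 34.6% in replicate 3 (99.9th percentile). *S1pr1* was next, with 9.64% (99.4th) and 25.6% (99.7th). *Nos3* followed with 4.06% (92.3rd) and 12.8% (95.6th), and *Ptgs1* with 2.63% (83.4th) and 8.74% (88.7th). These 4 genes did not overlap in the percentiles of the 2 libraries. *Piezo1* had 1.22% (63.9th) and 6.47% (81.1st), *Ece1* 1.28% (65.1st) and 5.06% (73.9th), and *S1pr2* 0.587% in replicate 2 and 5.89% (78.4th) in replicate 3. The percentiles of these 3 genes overlapped, so their order was not resolved. *Edn1* had 0.637% (51.3rd) and 1.23% (41.7th). *S1pr3* had no coverage in replicate 2 and 3.03% (58.7th) in replicate 3. The percentiles of *Edn1*, *S1pr2*, and *S1pr3* overlapped as well, and *Edn1* ranked above *S1pr2* in replicate 2 and below it in replicate 3. The medians over all genes were 0.584% in replicate 2 and 2.07% in replicate 3. Counting bases under peaks of both libraries, the 10 genes had a median share of 1.25%, compared with 0.577% over all genes, and a median percentile of 64.7. The position of *Nos3* rested on the flanks of the gene. Without the 10 kb on each side, no base of its body lay under peaks of both. Its percentile for bases under both fell from 92.4 to 25.3, the value shared by genes with no such base. *Ednrb* was then at 98.7 and *S1pr1* at 99.2. The percentile of *S1pr2* fell from 50.2 to 25.3 without the flanks and to 21.4 with equal numbers of strongest peaks. Both are values of genes with no base under peaks of both.

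**Figure D2:**
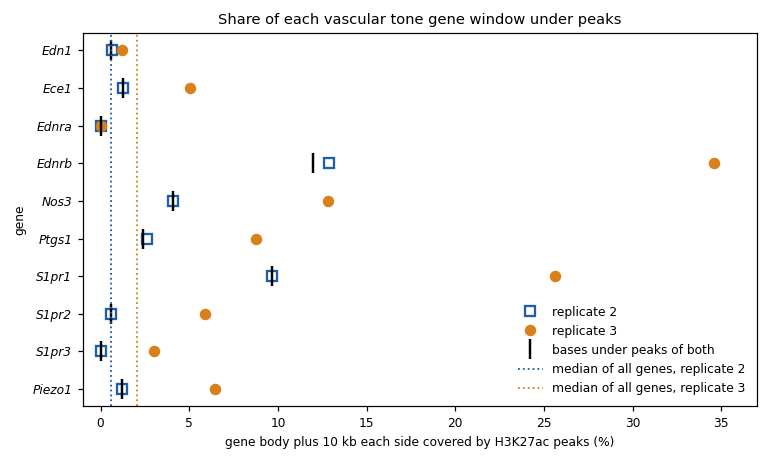
Percentage of each gene body plus 10 kb on each side that lay under H3K27ac peaks (x axis) for the 10 genes (y axis), with replicate 2 as open squares, replicate 3 as filled circles, and bases under peaks of both as vertical ticks. Dotted lines are the medians of all protein-coding genes in replicate 2 (0.584%) and replicate 3 (2.07%); *Ednrb* and *S1pr1* lie far to the right of both lines, and *Ednra* is at 0 in both libraries.

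Among all protein-coding genes, those nearest to *Ednrb* were *Pgghg*, *Hsp90ab1*, and *Zfp219*, at distances of 1.13, 1.63, and 1.78. The distance was taken over 4 percentiles, of the share of the window under peaks and of the strongest near fold enrichment in each library. Even so, the share of the window in replicate 3 was 20.4%, 23.8%, and 22.9% for these genes, below the 34.6% of *Ednrb*. Nearest to *Nos3* were its neighbor *Atg9b* (2.09), whose window overlaps that of *Nos3*, and *Hspa1l* (2.82) and *Wdr83os* (3.31).

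Where the promoter set gave a strand, the 5′ end could be examined separately. Of the 8 genes with a strand, 4 (*Edn1*, *Ece1*, *Ednrb*, and *Piezo1*) had bases under peaks of both libraries within 1 kb of it, compared with 42.7% of 17492 protein-coding genes with a strand. The set of RefSeq promoters used here, each from 250 bases before to 50 after a transcription start, covers 8 of the 10 genes. It lacks *Nos3* and *S1pr1*, which is a gap of this set. Of those 8 genes, 5 had bases under peaks of both libraries within 1 kb of a listed start, compared with 45.6% of 17492 protein-coding genes. *Ptgs1* was added because its listed start, at 36230426, lies 13.7 kb inside the gene as annotated. Summits lay close to these starts. At *Edn1* they were 5 bp from the start in replicate 2 and 51 bp in replicate 3, at *Ednrb* 21 and 9 bp, and at *Piezo1* 46 and 44 bp. At *Ptgs1* they were 64 and 51 bp away, and at the first start of *Ece1* 73 and 24 bp. *Ece1* has 4 listed promoters. The third, 51.3 kb into the gene, was under a replicate 3 peak only (fold enrichment of 14.3), and the fourth was under no peak. The start of *S1pr2* was also under a replicate 3 peak only, with the summit 28 bp away. The start of *S1pr3* was 2.45 kb from the nearest replicate 3 summit and 30.4 kb from the nearest of replicate 2.

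The promoters under these peaks differed in base composition. *Piezo1* had 75.0% G and C and 34 CpG pairs in its 300 bases, and the first promoter of *Ece1* 69.3% and 28, compared with medians of 52.7% and 7.0 over all promoters. *Edn1* and *Ptgs1* were lower, at 51.3% with 11 pairs and 50.7% with 6. *Ednrb* had 58.7% and 15. A peak of both libraries was thus present at promoters on both sides of the median G and C content. The promoter of *Ednra*, with no peak, had 54.7% and 8.

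Promoter sequences are shown for the genes with a listed start under a peak, to give the bases around the summits. They are from RefSeq (GRCm38.p6) and run 5′ to 3′ on the strand of the gene. Motifs were searched on both strands, and capitals mark the matches. The GATA motif, searched as AGATAA, occurred in 11.4% of 27025 promoters (1 per gene). The AP-1 motif (TGANTCA) occurred in 7.93%, the ETS motif (CCGGAAG) in 9.12%, the shear stress element (GAGACC) in 16.4%, the KLF motif (CCACCC) in 30.9%, and the CRE motif (TGACGTCA) in 1.88%. The TATA box, searched as TATAAA, occurred in 14.2%. The promoters are *Edn1* at chr13:42301226-42301525 (plus strand), the first and the third of *Ece1* at chr4:137861987-137862286 and chr4:137913308-137913607 (plus strand), and *Ednrb* at chr14:103843652-103843951 (minus strand). The others are *Ptgs1* at chr2:36230176-36230475 (plus strand), *S1pr2* at chr9:20976744-20977043 (minus strand), and *Piezo1* at chr8:122551280-122551579 (minus strand).
Edn1: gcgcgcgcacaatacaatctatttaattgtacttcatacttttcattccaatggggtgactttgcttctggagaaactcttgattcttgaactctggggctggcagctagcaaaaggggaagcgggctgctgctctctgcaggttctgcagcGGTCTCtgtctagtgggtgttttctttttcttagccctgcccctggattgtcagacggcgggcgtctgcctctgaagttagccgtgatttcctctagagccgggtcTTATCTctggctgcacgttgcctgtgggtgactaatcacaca
Ece1 promoter 1: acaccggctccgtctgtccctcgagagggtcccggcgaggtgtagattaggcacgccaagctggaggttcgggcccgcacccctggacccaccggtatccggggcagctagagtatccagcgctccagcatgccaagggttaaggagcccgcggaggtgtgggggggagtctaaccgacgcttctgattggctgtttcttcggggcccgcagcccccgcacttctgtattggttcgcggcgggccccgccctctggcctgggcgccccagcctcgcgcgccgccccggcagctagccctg
Ece1 promoter 3: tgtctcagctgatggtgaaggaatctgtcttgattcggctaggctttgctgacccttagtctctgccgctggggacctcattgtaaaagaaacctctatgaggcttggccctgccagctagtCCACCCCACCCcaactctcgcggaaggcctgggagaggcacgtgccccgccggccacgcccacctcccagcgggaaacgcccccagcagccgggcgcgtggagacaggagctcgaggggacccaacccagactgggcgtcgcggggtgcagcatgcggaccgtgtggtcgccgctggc
Ednrb: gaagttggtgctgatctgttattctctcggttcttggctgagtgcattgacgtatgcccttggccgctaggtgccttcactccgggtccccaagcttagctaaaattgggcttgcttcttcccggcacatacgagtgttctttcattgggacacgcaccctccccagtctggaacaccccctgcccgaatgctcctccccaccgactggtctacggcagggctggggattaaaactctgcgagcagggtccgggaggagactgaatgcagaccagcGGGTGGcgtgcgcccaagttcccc
Ptgs1: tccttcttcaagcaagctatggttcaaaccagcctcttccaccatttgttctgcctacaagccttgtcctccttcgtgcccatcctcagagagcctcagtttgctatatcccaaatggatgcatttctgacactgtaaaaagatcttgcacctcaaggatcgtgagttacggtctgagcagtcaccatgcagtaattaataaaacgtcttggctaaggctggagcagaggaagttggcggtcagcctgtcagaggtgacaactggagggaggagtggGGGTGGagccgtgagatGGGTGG
S1pr2: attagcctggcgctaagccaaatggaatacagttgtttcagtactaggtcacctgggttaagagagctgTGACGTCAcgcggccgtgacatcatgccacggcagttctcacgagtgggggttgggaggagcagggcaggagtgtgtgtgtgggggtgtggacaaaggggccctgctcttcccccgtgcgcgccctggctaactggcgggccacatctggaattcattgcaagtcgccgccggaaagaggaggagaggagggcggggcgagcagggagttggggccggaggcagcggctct
Piezo1: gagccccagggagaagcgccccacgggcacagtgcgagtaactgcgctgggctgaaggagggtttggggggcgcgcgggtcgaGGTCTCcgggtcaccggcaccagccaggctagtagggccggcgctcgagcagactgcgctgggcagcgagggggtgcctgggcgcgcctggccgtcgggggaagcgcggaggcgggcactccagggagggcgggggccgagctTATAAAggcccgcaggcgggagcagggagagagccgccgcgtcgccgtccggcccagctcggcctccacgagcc

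*Edn1* held a GATA match 8 bases after the start and a shear stress element match 98 bases before it, both on the opposite strand. *Piezo1* also held a shear stress element match on the opposite strand, 167 bases before the start, and a TATA match 24 bases before it on its own strand. KLF matches were in *Ednrb* (26 bases after the start), in *Ptgs1* (27 and 44 bases after), and in the third promoter of *Ece1*, where 2 matches overlap each other 128 and 123 bases before the start. No other matches overlapped. *S1pr2*, under a peak of replicate 3 only, held the CRE. The first promoter of *Ece1* held none of these motifs, and AP-1 and ETS letters were in none of the 7 promoters shown. Of the listed promoters not shown, that of *S1pr3*, with its start under no peak, also held a KLF match, 137 bases before the start, and those of *Ednra* and the second and the fourth of *Ece1* held none of the motifs. A match is a run of letters and not evidence of binding.

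Other genes of the same pathways were scored by peaks within 1 kb of either end, where 43.4% of all genes had bases under peaks of both libraries. In the flow sensing list, 12 of 14 genes had peaks of both libraries. Fold enrichments in replicates 2 and 3 were 44.7 and 113.0 at *Klf2*, and 31.7 and 82.7 at *Klf4*, which encode transcription factors induced by shear stress. They were 37.2 and 105.0 at *Gna11* and 23.0 and 74.4 at *Gnaq*, which encode G protein subunits. *Trpv4*, a cation channel gene, had no near peak, and *Piezo2* had a peak of replicate 3 only. *Pecam1*, *Cdh5*, and *Kdr* of this list are also among the LSEC markers.

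In the nitric oxide and cyclic GMP list, 13 of 21 genes had peaks of both libraries. Among them were *Hsp90aa1* (31.9 and 76.7), which encodes a chaperone of the synthase, *Slc7a1* (20.1 and 70.3), an arginine transporter gene, and *Pts* (19.7 and 49.6), which encodes an enzyme of tetrahydrobiopterin synthesis. Genes with no near peak in either library included *Nos1* and *Nos2*, which encode the neuronal and inducible synthases, and *Gucy1a1*. *Gucy1b1*, *Prkg1*, and *Cyb5r3* had a replicate 3 peak only. *Gucy1a1* and *Gucy1b1* encode the subunits of the nitric oxide receptor and *Prkg1* a kinase downstream of it.

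The endothelin list had peaks of neither library near *Edn2*, *Edn3*, *Ece2*, *Ecel1*, and *Mme*, all 5 of its genes. *Ece2* nevertheless had 2 shared regions elsewhere in its window, which covered 3.66% of it (90.7th percentile). *Edn1*, *Ece1*, and *Ednrb* were thus the genes of endothelin signaling examined that had shared near peaks. In the S1P list, 7 of 10 genes had peaks of both libraries. They included the transporter gene *Spns2* (15.3 and 69.4), the lyase gene *Sgpl1* (25.6 and 61.5), the receptor gene *S1pr4* (30.5 and 59.4), and the phosphatase gene *Plpp3* (17.6 and 53.6). *Mfsd2b* had a replicate 3 peak only, and *Apom* and *S1pr5* had no near peak. Both of these had shared regions elsewhere in their windows, which covered 8.11% and 3.65%.

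In the prostanoid list, 4 of 15 genes had peaks of both libraries, the synthase genes *Ptges3* (18.3 and 38.7) and *Ptges2* (8.81 and 29.5) and the receptor genes *Ptger1* (16.3 and 38.4) and *Ptger4* (8.81 and 22.5). Another 4 (*Ptges*, *Ptgir*, *Slco2a1*, and *Hpgd*) had a replicate 3 peak only, and 7 had none. A list of other tone genes had 7 of 20 with peaks of both libraries, led by the heme oxygenase genes *Hmox1* (19.9 and 56.1) and *Hmox2* (16.3 and 45.4). They were followed by *Calcrl* (14.8 and 42.3), which encodes the receptor for adrenomedullin, and *Adm* (10.8 and 21.9), which encodes adrenomedullin itself. Over the 6 lists, 43 of 85 genes (50.6%) had peaks of both libraries. Whether such near peaks lay at the ends of neighboring genes was not examined for these lists.

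With 2 libraries treated as 1 group, no test was made. The number of shared regions depended on the rule for sharing. A reciprocal overlap of at least 50% left 2 near and 7 distal regions, and 2 of the 10 genes with a shared near region. *Edn1* and *Piezo1* then had no shared region at all. Replicate 3 alone gave 18 near and 74 distal regions.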

How the data were processed

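H3K27ac ChIP-Seq was analysed from 1 deposited peak list per library (replicates 2 and 3), with peaks called in each library separately. The submitters' processing notes name cutadapt 0.4.4, BWA 0.7.17, Picard 1.67, MACS2 2.0.10, bedtools 2.27.1, and the build mm10. Whether the inputs served as controls is not stated. In the 10 columns deposited by the authors, the fold enrichment is a ratio of peak signal to background. Further columns deposited by the authors hold the −log10 p-value and the −log10 q-value. The score deposited by the authors rescales the latter. No q-value exceeded 0.00907 (replicate 2) or 0.00981 (replicate 3). Read depth is unknown, and deeper sequencing or stronger enrichment can lengthen a list, which can change counts of shared regions. The study's text describes fragmentation by tagmentation, whereas the sample records describe sonication.

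Genes and promoters came from RefSeq (GRCm38.p6, the assembly of mm10). Near-end calls over all genes used bases under peaks of both lists. Percentiles are midranks. The members and lists were chosen with earlier results of these data known. Besides the 10 members, genes named were, per pathway list, up to 4 genes with the highest replicate 3 fold enrichment among those with near peaks of both libraries, and those with no near peak where 4 or fewer. Also named were genes that overlap a member's window, cell type markers, and the 3 protein-coding genes nearest to *Ednrb* and *Nos3*. Genes of these lists with a peak of replicate 3 only, and genes without a near peak in the endothelin list and in the nitric oxide and cyclic GMP list, were named after their values were seen. Some genes that this rule takes are not reported here. The overlap steps were tested on simulated data. Python 3.11.15, numpy 2.4.6, pandas 2.3.3, and matplotlib 3.10.9 were used. Alternatives were a stricter q-value (1e-05), equal numbers of peaks, reciprocal overlap, other windows and flanks, joined regions, regions at other genes left out, other gene sets and ranks, and each library alone.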

Additional observations from a re-analysis of the deposited data

How the results depend on the processing

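The 8 genes with a shared region in the window stayed within 1.5 times that count under every alternative tried, and the 6 with a shared near region under every one but reciprocal overlap. A reciprocal overlap of at least 50% gave 6 genes with a shared region in the window, 2 with a shared near region, 2 near regions, and 7 distal regions, and the cause was not tested. With the 5′ end only, 4 near regions were left among the 8 genes with a strand. Distal regions numbered 9 with no flank and 42 with a flank of 50 kb. With each library alone, genes with a near peak ranged from 7 to 8, genes with a peak in the window from 8 to 9, near regions from 12 to 18, distal regions from 25 to 74, and the median percentile of the covered share from 64.5 to 79.7. The higher value of each range came without replicate 2. Over single genes, 116 of 175 values stayed within 1.5 times the count, or within 1 SD between the libraries for percentiles, and 59 did not. A listed transcription start in place of a gene end, chosen after seeing the data, gave 5 genes. No paired analysis was possible because the sources name no condition that separates the H3K27ac libraries, which were treated as 1 group. Input libraries with the same numbers have no list used here. The depth of the libraries is unknown, and its part in the longer replicate 3 list and in the counts of shared regions was not tested.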

Other observations

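Some genes of the pathway lists had no near peak of both libraries but a well covered window; they were chosen after their values were seen. *Cyb5r3*, a reductase that limits nitric oxide signaling, had a near peak of replicate 3 only, yet 4 shared regions covered 7.07% of its window (98.2nd percentile of protein-coding genes). The thromboxane receptor gene *Tbxa2r*, with no near peak, had 5.14% covered by 1 shared region (95.7th percentile). The apelin receptor gene *Aplnr*, also with none, had 4.13% in 2 regions (92.8th percentile). In the window of *Hmox1*, the inducible heme oxygenase gene, 9 shared regions covered 24.8%, a larger share than in any of the 10 vascular tone genes. The genes next to these windows were not examined.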
